A study of Homo sapiens with 3 samples.

Results

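Heat shock proteins, their DNAJ cochaperones and the chaperonins fold newly made and damaged proteins, and 87 of the 18417 genes measured on the arrays belonged to this group. The members were taken by symbol: the HSPA, HSPB, HSPD, HSPE, HSPH, HSP90, DNAJA, DNAJB and DNAJC families, the CCT genes with TCP1, and HSF1, BAG3 and CHORDC1. Some chaperones of the endoplasmic reticulum, such as HSPA5, were left out of the members and are described apart at the end. Others, such as DNAJB12 and DNAJC1, stayed among the members. The symbols included 13 pseudogenes, 11 of them copies of HSP90 genes, and HSPBAP1, which is a partner of a small heat shock protein and not itself a member of that family. HSF2 had no probe set with a single gene symbol and is not analysed here. The 3 arrays held RNA of HepG2, an established human liver tumour line grown in MEM medium. The control array came from untreated cells, the GO array from cells exposed to graphene oxide for 24 h, and the rGO array from cells exposed to reduced graphene oxide, which carries fewer oxygen groups, for 24 h. Both doses were EC20 values worked out from viability assays, and the labels give no concentrations. There was 1 array per condition, so no value has a replicate error and no test was possible; that single array limits how precise each value can be. Where 3 levels stand in a row, they are those of the control, GO and rGO arrays in that order.

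HSP70 proteins bind unfolded stretches of other proteins in cycles driven by ATP. J proteins, named for their DNAJ domain, deliver clients and start the hydrolysis of ATP, and HSP110 proteins release ADP so that the cycle can begin again. HSP90 acts later on signalling proteins, and the barrel-shaped chaperonins enclose a protein while it folds: TRiC (CCT subunits and TCP1) in the cytosol, and HSPD1 with its lid HSPE1 in mitochondria. When unfolded proteins accumulate, the transcription factor HSF1 is released from chaperones and drives many of these genes through heat shock elements in their promoters.

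The arrays gave log2 expression values for 33297 probe sets, with medians between 6.63 and 6.66. Of the hepatocyte and HepG2 markers 7 of 8 were measured, and these lay between 10.8 and 13.6 in the 3 arrays. Of 5 measured leukocyte markers, only LYZ (13.2 to 13.4) passed the level filter, and PTPRC and CD3E lay between 3.56 and 4.77. Of 6 fibroblast, stellate and endothelial markers COL1A1 and PDGFRB passed it, at 6.57 to 7.43. The log2 of the summed level of each list ranged over the 3 arrays from 15.2 to 15.3 for the hepatocyte markers, 13.3 to 13.5 for the leukocyte markers and 8.88 to 9.07 for the stromal ones. These sums hide moves of single hepatocyte markers in both directions. FGB read 11.62 in control cells and 10.77 with GO, and TTR read 11.38 and 12.08. The part of the marker lists in the results below was not tested. In bulk RNA, fewer cells that make a transcript and less of it per cell cannot be told apart.

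The first question was how chaperone genes differed between GO-exposed and untreated cells. Most were lower in the GO array, above all the ribosome-bound J protein DNAJC2, the J protein DNAJB4, the mitochondrial lid HSPE1, the TRiC subunit CCT2, the HSP110 protein HSPA4L and the stress-inducible HSP90AA1. The constitutive HSPA8 and the heat-inducible J protein DNAJB1 stood near their control values, and the small heat shock protein HSPB1, BAG3 and HSF1 were higher. Of the 87 members 57 passed a level filter, a mean over the 3 arrays of at least 6.66 on the log2 scale (the 40th percentile of all genes). Of these 57, 40 were below 0 in GO minus control, against 48.9% of the 11050 genes past the filter. Their median difference was -0.10, against 0.01 over all genes past the filter. The spread among members was also wide: the robust SD (scaled median absolute deviation) was 0.368 for members and 0.244 for all genes.

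With GO, 7 of the 57 members stood 1.5-fold or more below control, where 4.23% of all genes past the filter did, and 0 members were at least 1.5-fold higher, where 1.91% of all genes were. DNAJC2 was the 1 member at least 2-fold lower, against 0.914% of all genes, and 0 were 2-fold higher, against 0.253%. A smaller difference, of at least 0.32 on the log2 scale either way, was seen for 19 of the 57 members and 22.9% of all genes. The count of 7 rested on small margins, since CCT2, HSPA4L, HSP90AA1 and HSP90AA6P lay between -0.61 and -0.59 and the threshold at 0.58. After each array was centred on its median, or after quantile normalization, 3 of the 57 members remained: DNAJC2, DNAJB4 and HSPE1. Before these steps 4.23% of all genes were at least 1.5-fold lower, and the share after them was not counted. HSP90AA6P is a pseudogene, and over protein-coding members alone the count was 6 of 53 without these steps. The GO array had the lowest of the 3 values for 34 of the 57 members, while it had the lowest value for 39.8% of all genes. As a gauge of how far probe sets disagree, 2 probe sets of the same gene were compared (365 genes). The robust SD of their disagreement, divided by the square root of 2 to give a spread per probe set, was 0.0765 in GO minus control. In rGO minus control it was 0.0570. Both probe sets were read on the same arrays, so a deviation of RNA preparation, labelling or hybridization that they share does not enter this gauge. It also holds nothing of the variation between culture dishes. Neither kind of variation was measured.

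**Figure D1:**
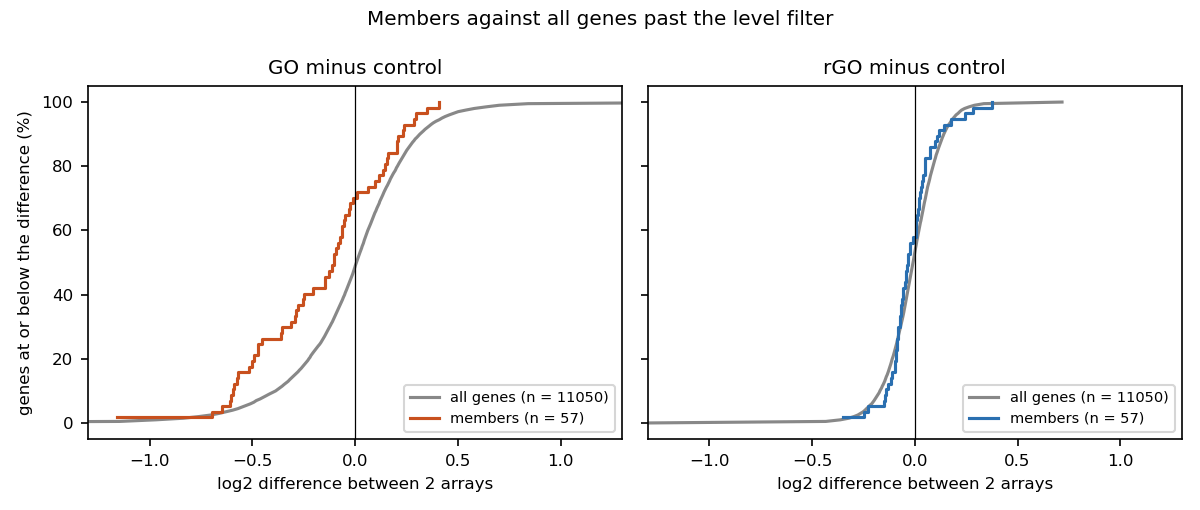
Cumulative percentage of genes (vertical axis) at or below a log2 difference from control (horizontal axis), for the 57 members (coloured steps) and the 11050 genes past the level filter (grey), in GO (left) and rGO (right). With GO the member curve lies mostly to the left of the grey curve and has a median of -0.10, whereas with rGO the curves run close together, with medians of -0.03 and -0.01.

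Promoters were searched for the heat shock element, since HSF1 acts on it. The element was taken as 3 alternating units, GAANNTTCNNGAA on either strand (its reverse complement is TTCNNGAANNTTC), in the 250 bases before each annotated start in RefSeq (GRCh38.p14). Promoter sequences were matched by symbol for 66 of the 87 members. The full element was found for 7 of these 66 genes (10.6%), against 0.557% of the 27305 genes with a promoter in the table. The 7 were HSP90AA1, HSP90AB1, HSPA8, HSPA6, HSPD1, DNAJB6 and CHORDC1. The shorter form of 2 units (GAANNTTC or TTCNNGAA, also counted inside every full element) was found for 22 of the 66 member genes (33.3%) and 3813 of all genes (13.96%). A match describes the letters and not binding. The sequences of 4 promoters are shown, 5′ to 3′ on the strand of the gene and ending at the base before the start. These 4 genes were picked by name among the 7 that carry the element. For a gene with several starts, the start with the most full elements was taken. Capitals mark the full element, where overlapping matches run together.
HSP90AA1: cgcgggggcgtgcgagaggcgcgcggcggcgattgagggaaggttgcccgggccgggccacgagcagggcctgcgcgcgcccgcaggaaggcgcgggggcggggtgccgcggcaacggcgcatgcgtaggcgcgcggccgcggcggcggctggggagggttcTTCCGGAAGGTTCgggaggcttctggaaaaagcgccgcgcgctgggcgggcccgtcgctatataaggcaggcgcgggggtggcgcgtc
HSP90AB1: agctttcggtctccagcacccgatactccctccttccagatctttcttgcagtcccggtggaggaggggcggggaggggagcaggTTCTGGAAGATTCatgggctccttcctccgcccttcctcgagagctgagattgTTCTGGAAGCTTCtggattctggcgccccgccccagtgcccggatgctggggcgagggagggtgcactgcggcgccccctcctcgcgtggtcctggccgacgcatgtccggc
HSPA8: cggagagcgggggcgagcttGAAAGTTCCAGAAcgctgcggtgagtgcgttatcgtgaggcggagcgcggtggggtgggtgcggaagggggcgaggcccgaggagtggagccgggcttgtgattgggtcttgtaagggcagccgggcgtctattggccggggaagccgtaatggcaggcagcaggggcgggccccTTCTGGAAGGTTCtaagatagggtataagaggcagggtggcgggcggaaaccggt
CHORDC1: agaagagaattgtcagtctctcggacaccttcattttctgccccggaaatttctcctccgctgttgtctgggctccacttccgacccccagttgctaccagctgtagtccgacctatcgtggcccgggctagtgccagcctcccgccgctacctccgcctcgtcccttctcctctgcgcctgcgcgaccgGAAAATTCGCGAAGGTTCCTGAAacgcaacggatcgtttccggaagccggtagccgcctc
The stretch of HSP90AA1 is chr14:102087045-102087294 (minus strand), with the element from -88 to -76 relative to the start. That of HSP90AB1 is chr6:44247693-44247942 (plus strand), with elements at -165 to -153 and -112 to -100. For HSPA8 it is chr11:123062137-123062386 (minus strand), with elements at -230 to -218 and -55 to -43. For CHORDC1 it is chr11:90223050-90223299 (minus strand), where 3 overlapping matches cover -60 to -38. Among the 47 members past the filter with a promoter sequence, the 6 with the full element had GO minus control differences from -0.59 to 0.13, with a median of -0.06 and 4 below 0. The 41 without it ranged from -1.16 to 0.41, with a median of -0.10 and 30 below 0. Of all genes past the filter 48.9% were below 0 with GO. With rGO the medians were 0.07 and -0.05. The shorter form split the members the other way with GO: the 14 with it had a median of -0.24, with 10 below 0, and the 33 without it had a median of -0.10, with 24 below 0. In GO minus rGO those medians were -0.32 and -0.09, and in rGO minus control 0.01 and -0.06. The order of the medians with GO thus depended on which form was counted, and no difference between carriers and others was tested.

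HSPA8, the constitutive HSP70 of the cytosol, read 13.46 in control cells, 13.47 with GO and 13.49 with rGO. Its differences from control were 0.01 with GO and 0.03 with rGO, so its transcript stood almost level in all 3 arrays. HSPA9, the mitochondrial HSP70 that pulls proteins through the inner membrane, read 11.73, 11.43 and 11.65 in control, GO and rGO. The GO array was the low one, 1.23-fold below control (-0.29). HSPA13, a microsomal HSP70, also stood at -0.29 with GO and at -0.14 with rGO. HSPA14, which forms the ribosome-associated complex with DNAJC2, read 8.04 in control cells, 7.54 with GO and 7.98 with rGO. It was 1.42-fold lower with GO (-0.50), the largest difference in the family. HSPA12A and HSPA12B, distant relatives, stood at -0.03 and 0.10. Of the 6 HSP70 members past the filter 4 were below 0 with GO, against 48.9% of all genes past it, with a median of -0.16. The stress-inducible pair HSPA1A and HSPA1B is read only by probe sets that list both symbols, so neither has a value as a gene. The 5 such probe sets, 4 of them with distinct values, stood 0.01 above control with GO and 0.05 to 0.07 above it with rGO.

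The 3 HSP110 genes, which exchange nucleotides for HSP70, were all lower in the GO array, with a median of -0.45. Of all genes past the filter 48.9% were lower there. HSPH1 read 10.73 in control cells, 10.28 with GO and 10.69 with rGO, a 1.37-fold lower value with GO (-0.45). HSPA4L read 10.35, 9.75 and 10.31, which is 1.52-fold lower with GO (-0.60). HSPA4 had the smallest difference, -0.20, with readings of 10.26, 10.06 and 10.31. In each case control and rGO lay close together, between -0.05 and 0.05, and the GO array stood below both.

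The cytosolic HSP90 paralogs differed. HSP90AA1, the form that stress induces, read 12.53 in control cells, 11.94 with GO and 12.52 with rGO, so that only the GO value was low (1.51-fold, -0.59). HSP90AB1, the constitutive form, read 12.59, 12.72 and 12.66 and was slightly above control with GO (0.13) and with rGO (0.07). The 4 pseudogenes past the filter are close copies whose probe sets may read the parent transcripts, which makes their values uncertain. HSP90AA6P stood at -0.59 and HSP90AA2P at -0.13 with GO, whereas HSP90AB2P and HSP90AB3P stood at 0.20 and 0.16. With rGO, HSP90AB2P stood at 0.38, HSP90AB3P at 0.28 and HSP90AA2P at 0.24. The family's median of 0.00 with GO pools these unlike values: its mean was -0.14, and the median over the 2 protein-coding genes was -0.23. HSP90AA4P, under the filter, read 6.93, 6.06 and 6.83 and was 1.84-fold lower with GO.

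HSPB1, a small heat shock protein that holds unfolded proteins and binds actin filaments, read 9.66 in control cells, 10.07 with GO and 9.64 with rGO. It was 1.33-fold higher with GO (0.41), the largest positive difference among members past the filter, and stood at -0.02 with rGO. The other HSPB genes (HSPB3, HSPB6, HSPB7, HSPB8 and HSPB9) lay under the filter, so that HSPB1 alone speaks for the family here.

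HSPD1 and HSPE1 together form the mitochondrial chaperonin and its lid, and RefSeq lists the genes as neighbours on opposite strands. HSPD1 read 12.47 in control cells, 12.36 with GO and 12.54 with rGO. HSPE1 read 10.12, 9.47 and 9.97. The barrel gene was thus close to control with GO (-0.11) while the lid gene was 1.57-fold lower (-0.65). With rGO they stood at 0.07 and -0.15. The full heat shock element was found before a start of HSPD1, and neither form of it in the 250 bases before the start of HSPE1. A match farther from the start of HSPE1 would be missed, so the search does not show that HSPE1 lacks the element.

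TRiC folds actin and tubulin and needs each of its subunits. Of the 8 subunit genes past the filter 7 were below 0 with GO, against 48.9% of all genes past it. TCP1 was below 0 only by a margin that quantile normalization took away. The median of the 8 was -0.11. CCT2 read 10.69 in control cells, 10.08 with GO and 10.55 with rGO and was 1.52-fold lower with GO (-0.61). CCT4 (-0.31) and CCT5 (-0.25) followed, and CCT6A stood at -0.15. CCT3, TCP1 and CCT8 stood at -0.08, -0.07 and -0.05. CCT7 was the exception at 0.14. The subunits of this complex thus did not share a single difference. With rGO they lay between -0.14 (CCT2) and 0.04 (CCT5).

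Among the J proteins of class A, which resemble bacterial DnaJ most, DNAJA1 read 10.12 in control cells, 9.62 with GO and 10.23 with rGO. It was 1.41-fold lower than control with GO (-0.49) and slightly above control with rGO (0.12). DNAJA2, also cytosolic, stood at -0.28 with GO, and the mitochondrial DNAJA3 at -0.03. In class B, DNAJB4 read 8.50, 7.80 and 8.41 and was 1.62-fold lower with GO (-0.70). DNAJB1, a classical heat-induced partner of HSP70, read 10.52, 10.58 and 10.46 and stood at 0.06 with GO and -0.07 with rGO. DNAJB6, which restrains protein aggregation, stood at -0.01 with GO and 0.11 with rGO. Its other probe set stood at 0.01 and -0.05. DNAJB12, a J protein of the endoplasmic reticulum membrane, was above control with GO (0.29), as was DNAJB2 (0.12). The class B median of -0.01 over 7 genes took the other sign under quantile normalization (0.03) and median centring (0.01). With GO 4 of the 7 were below 0, against 48.9% of all genes past the filter.

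The class C J proteins, the most varied, held 18 genes past the filter. With GO 13 of these were below 0, against 48.9% of all genes past the filter, and the median was -0.12. DNAJC2, which sits on ribosomes with HSPA14 and meets new chains as they emerge, read 8.83 in control cells, 7.67 with GO and 8.84 with rGO. The GO value was 2.23-fold below control (-1.16), the largest difference of any member, while the rGO value matched the control within 0.01. DNAJC21, which takes part in building the large ribosomal subunit, read 9.10, 8.53 and 9.02 and was 1.48-fold lower with GO (-0.57). DNAJC15 and DNAJC19, J proteins of the import machinery of the mitochondrial inner membrane, were also low in the GO array. DNAJC15 read 10.53, 9.95 and 10.49, with a difference of -0.58. DNAJC19 read 9.30, 8.79 and 9.06, with differences of -0.52 with GO and -0.25 with rGO. Its weaker probe set, with a mean level of 7.66, gave -0.81 and -0.31 and so lay past 1.5-fold with GO. The count of 7 members used the stronger set and left DNAJC19 out. DNAJC15 and DNAJC21 lay just short of 1.5-fold.

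DNAJC1, of the endoplasmic reticulum membrane, and DNAJC8, a spliceosome component, both stood at -0.47 with GO. DNAJC12, a cochaperone of aromatic amino acid hydroxylases, stood at -0.36 with GO and -0.23 with rGO. On the other side DNAJC30, a mitochondrial protein, stood at 0.29 with GO, DNAJC4 at 0.23, and DNAJC16 and DNAJC5, the latter a cysteine string protein of vesicles, both at 0.21. DNAJC11, of the mitochondrial membrane, stood at 0.16. J proteins tied to mitochondria thus lay on both sides of 0.

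**Figure D2:**
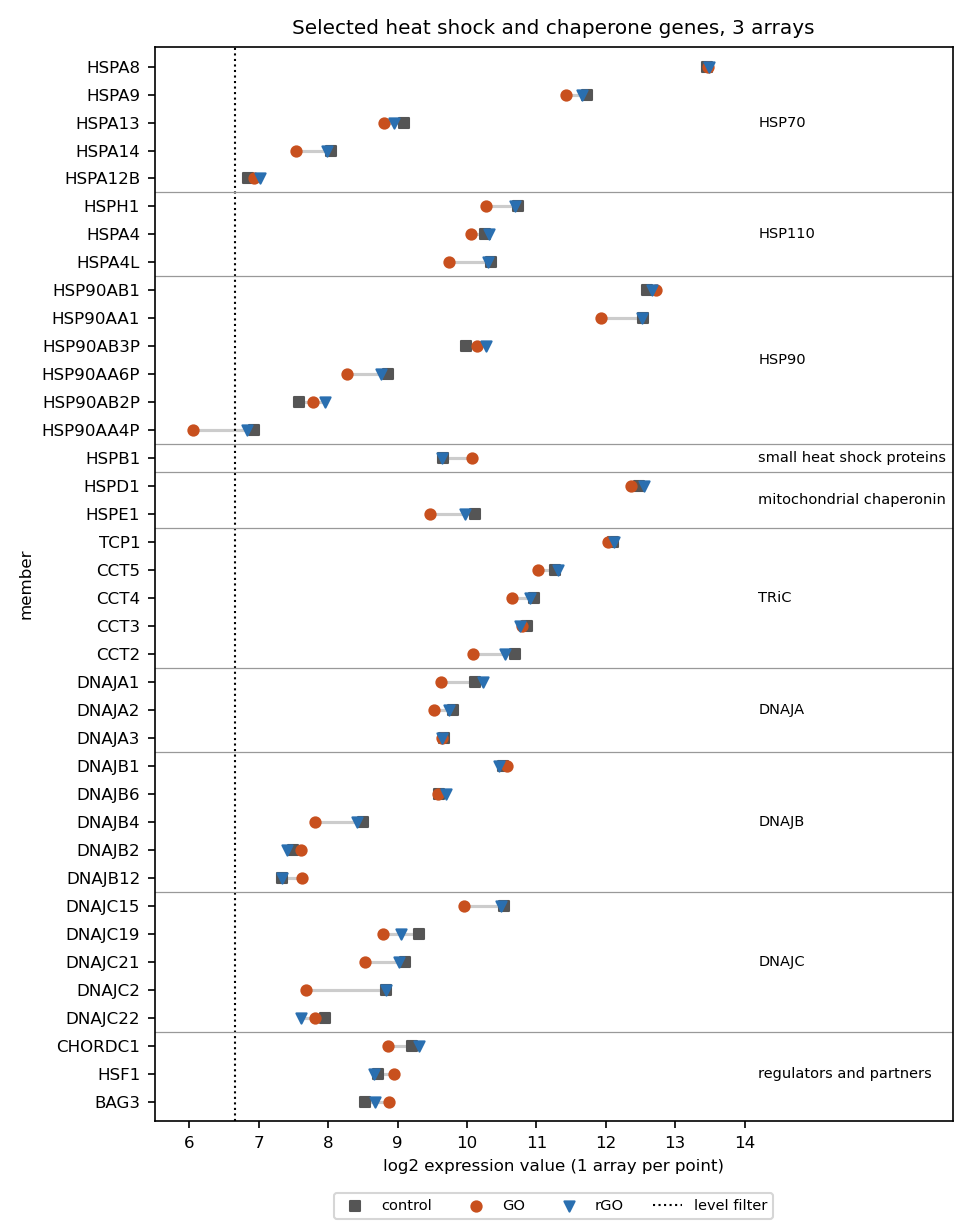
Log2 expression values (horizontal axis) of selected members in the control (squares), GO (circles) and rGO (triangles) arrays, 1 array each, with families separated by lines and the level filter dotted. The GO point stands to the left of the others for DNAJC2, DNAJB4, HSPE1 and HSP90AA1 and to the right for HSPB1, while control and rGO points mostly overlap.

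The regulators HSF1 and BAG3 stood above control with GO, while the partner CHORDC1 stood below it. HSF1 read 8.71 in control cells, 8.95 with GO and 8.66 with rGO, 1.18-fold higher with GO (0.24). BAG3, which hands HSP70 clients to autophagy and is itself induced by HSF1, read 8.53, 8.88 and 8.68, 1.27-fold higher with GO (0.35) and 1.10-fold higher with rGO (0.14). CHORDC1, a partner of HSP90 whose promoter is printed above, read 9.21, 8.86 and 9.31. It was 1.28-fold lower with GO (-0.36) and stood at 0.10 with rGO. All 3 lay within 1.5-fold of control in both exposures.

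**Figure D3:**
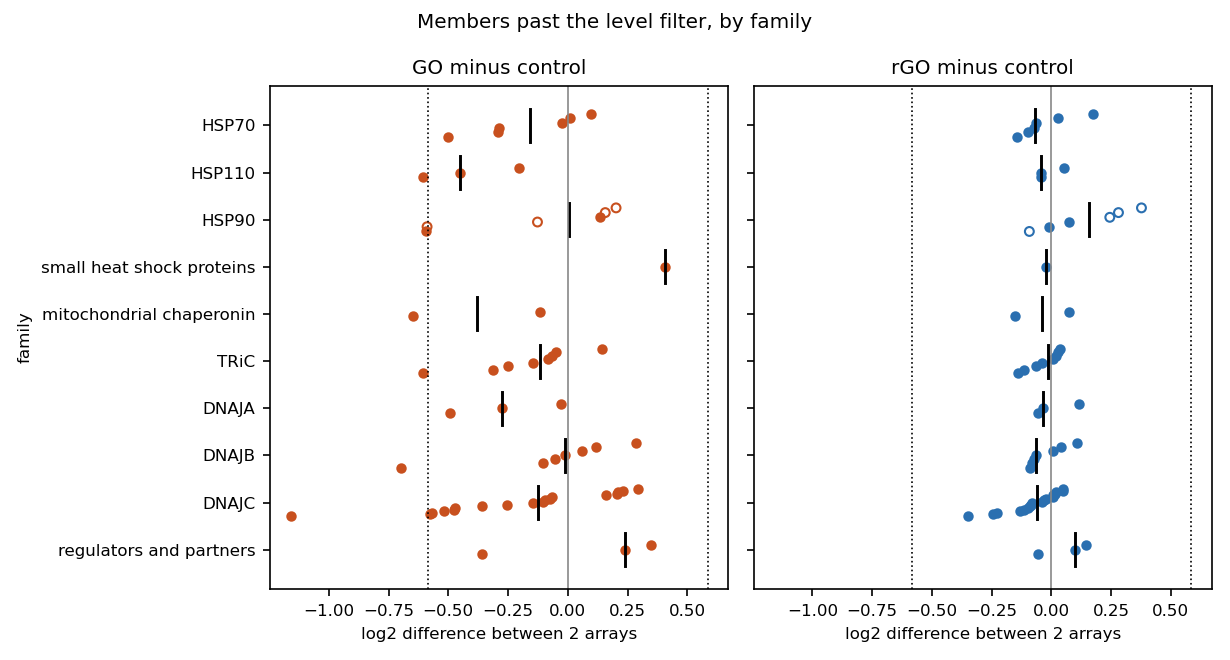
Log2 differences from control (horizontal axis) of the 57 members past the level filter by family, for GO (left) and rGO (right); filled points are protein-coding genes, open points pseudogenes, black bars medians and dotted lines 1.5-fold. With GO the HSP110 genes lie at -0.60, -0.45 and -0.20 and DNAJC2 at -1.16, and with rGO no member reaches a dotted line.

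The second question was how the same genes read in cells exposed to rGO, where they stood close to their control values. Of the 57 members 33 were below 0, against 53.1% of all genes past the filter, and the median was -0.03 against -0.01 for all genes. None of the 57 members was 1.5-fold away from control in either direction, where 0.154% of all genes were. A log2 difference of at least 0.32 either way was seen for 2, DNAJC22 and HSP90AB2P, and for 2.16% of all genes. DNAJC22, a J protein of the membrane, read 7.95 in control cells, 7.80 with GO and 7.60 with rGO, so that rGO was the low array (-0.35) and GO lay between (-0.14). HSP90AB2P, a pseudogene, read 7.58, 7.78 and 7.95 and was high in the rGO array. The robust SD of the members was 0.0877, against 0.116 for all genes past the filter. Both exposures share the single control array, so a chance deviation of that array enters each comparison alike.

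The third comparison, GO minus rGO, does not use the control array but shares the GO array with the first. Of the 57 members 38 were below 0, against 47% of all genes past the filter, with a median of -0.12 against 0.01. The 3 members at least 1.5-fold lower were DNAJC2 (-1.16), DNAJA1 (-0.61) and DNAJB4 (-0.61), where 3.2% of all genes were, and DNAJC2 was the 1 member past 2-fold, where 0.534% were. At 0.32 or more either way there were 18 members and 20.1% of all genes. None was at least 1.5-fold higher, where 1.82% of all genes were. HSPB1 had the largest positive value, 0.43. After median centring or quantile normalization only DNAJC2 stayed past 1.5-fold.

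Other genes of the folding machinery, from lists made by function, were set beside the members. For the counts of each list, 48.9% of all genes past the filter were below 0 with GO. Of 31 cochaperones of HSP90 and HSP70, 26 were measured and past the filter; 9 were below 0 and 17 above it with GO, with a median of 0.06. NUDCD2 and CDC37L1, relatives of HSP90 cochaperones, both stood at -0.50, and NUDC, a nuclear migration protein and HSP90 partner, stood at 0.47. STIP1, which links HSP70 to HSP90, stood at 0.06. Of the 26, 0 were 1.5-fold away from control in either direction, where 6.14% of all genes past the filter were. Of 12 HSF1 target genes outside the members and past the filter, 6 were above and 6 below 0 with GO, with a median of -0.02 that was 0.00 after centring. Among these, CACYBP, a partner of ubiquitin ligases, read 10.38 in control cells, 9.71 with GO and 10.42 with rGO and was 1.59-fold lower with GO (-0.67). The mitochondrial ribosomal gene MRPL18 stood at -0.51 and the collagen chaperone SERPINH1 at 0.42, and CRYAB, a small heat shock protein under the filter, at -0.54. STIP1, FKBP4 and PTGES3 stand in both lists. HSPA5 (0.07 with GO) stands among these HSF1 targets and also among the endoplasmic reticulum chaperones below.

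Mitochondrial chaperones and proteases numbered 14 past the filter, 7 on each side of 0 with GO, where 48.9% of all genes were below 0. Their median was -0.02 and their mean 0.04, and centring moved that median to 0.01. CLPB, a mitochondrial disaggregase, stood at 0.39, and the proteases PITRM1 and CLPP stood at 0.36 and 0.35. Of the 8 chaperones of the endoplasmic reticulum left out of the members 5 were below 0 with GO, with a median of -0.18. DNAJB11 and HSP90B1 both stood at -0.35 and DNAJC3 at -0.32, while SIL1, which exchanges nucleotides for HSPA5, stood at 0.27. Of the 19 partners and clients of TRiC past the filter 8 were below 0, with a median of 0.05 and a mean of -0.15. The 3 lowest values there were those of partners of TRiC: PFDN4 (-1.97), VBP1 (-0.88) and TXNDC9 (-0.78). All 3 were at least 1.5-fold lower, where 4.23% of all genes past the filter were. PFDN4 and VBP1 are subunits of prefoldin, which hands actin and tubulin to TRiC, and of its other subunits PFDN5 stood at -0.56, PFDN2 at -0.26, PFDN6 at 0.00 and PFDN1 at 0.17. Among the clients on the list, the 2 actin and 6 tubulin genes stood between 0.05 (TUBB4B) and 0.42 (ACTG1), while the cell cycle proteins CDC20 and FZR1 stood at -0.23 and 0.30. With rGO the medians of the 5 lists lay between -0.05 and 0.02. No difference between the members and these lists was tested.

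**Figure D4:**
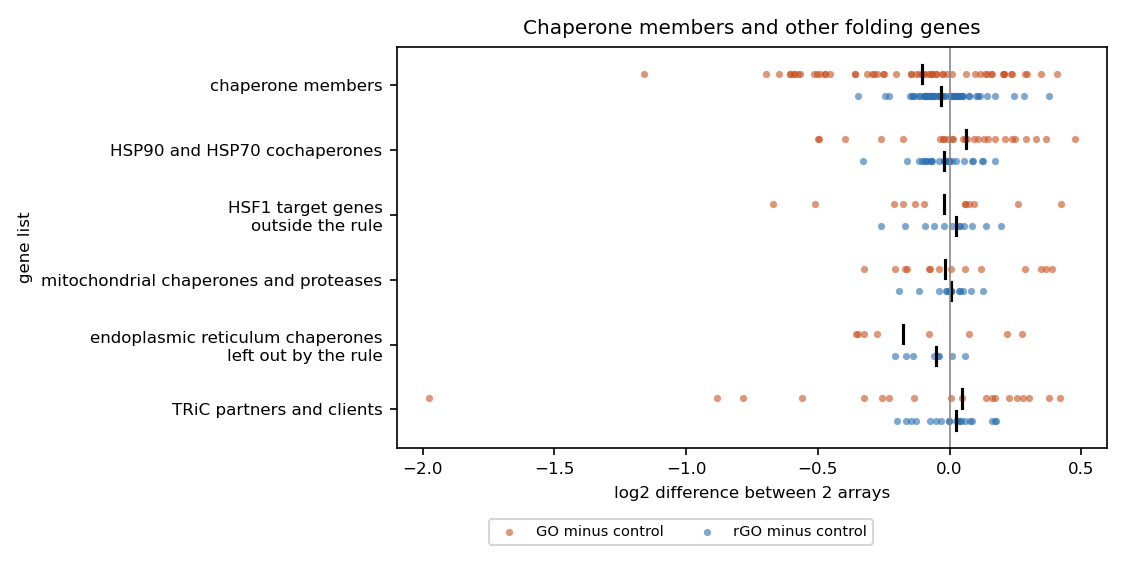
Log2 differences from control (horizontal axis) for the 57 chaperone members and for genes past the level filter of 5 other folding lists, with GO in orange, rGO in blue and medians as black bars. The members' GO median is -0.10 and that of the HSP90 and HSP70 cochaperones 0.06; the lowest point is PFDN4 at -1.97.

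The remaining 30 members, 9 of them pseudogenes, had means under the filter, where background can hide a difference. With GO 19 of them were below 0 and 11 above, where 54.6% of the 7367 genes under the filter were below 0, with a median of -0.07 and a range from -0.88 (HSP90AA4P) to 0.23 (DNAJB13). With rGO 18 were below 0, where 57.7% of the genes under the filter were, and the values lay between -0.34 (HSPB3) and 0.30 (CCT6B). They included HSPA6, an HSP70 made almost only under stress, at 5.81 in control cells and 5.70 with GO, and 0.20 above control with rGO. These values are those of the probe set that lists HSPA6 alone; another, which lists HSPA7 and HSPA6 together, read 7.38, 7.43 and 7.74, above the filter level in all 3 arrays.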

How the data were processed

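The deposited table held the authors' log2 expression values of 3 Affymetrix arrays (biotin-labelled cDNA from total RNA, per the labels' protocols). RMA and MAS5 appear, without role or version, per the submitters' processing notes. The genome build was not given in the sources used here, nor was any further scaling. Probe sets were named through the platform annotation, which can be old: 19460 had 1 gene symbol, 1754 several and 12083 none listed. For each of 18417 genes the probe set with the highest mean was used; 3 members had more than 1. All 87 symbols matched RefSeq by Entrez ID. Values were subtracted between arrays, with no further normalization, and counted past 1.5-fold (log2 0.58). Members and lists were chosen with earlier results of these data known. The genes described were, per family, the highest in level, the 3 with the largest GO and the 2 with the largest rGO differences, those past 1.5-fold and 15 well-known members, of which HSPA1A, HSPA1B and HSF2 had no gene value; from each outside list the 3 largest were taken, and further genes were named after their values were seen. Alternatives were quantile normalization, median centring, loess (span 0.3), other filters, averaging all probe sets per gene, and thresholds of 0.32 and 1 on the log2 scale; the restriction to protein-coding members was chosen after seeing the data. The counting code was checked on simulated arrays, which tests no difference between the real ones. Python 3.11.15, numpy 2.4.6, pandas 2.3.3, statsmodels 0.14.6 and matplotlib 3.10.9 were used.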

Additional observations from a re-analysis of the deposited data

Results flagged for a closer look

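Probe sets that list several symbols were left out of the gene comparisons. The probe set that lists HSPA7 and HSPA6 together read 7.38 in control cells, 7.43 with GO and 7.74 with rGO, a difference of 0.36 with rGO. Of the 12 probe sets with a heat shock or DNAJ symbol among several, it was the 1 that stood 0.32 or more (log2) above control in either exposure. Of all genes past the filter, 22.9% lay 0.32 or more from control either way with GO, and 2.16% with rGO. Others of the 12 probe sets lay farther below control with GO: the set listing DNAJC25-GNG10 and GNG10 (-0.63) and the set listing HSPE1-MOB4 and MOB4 (-0.55). The probe set that lists HSPA6 alone stood at 0.20 with rGO, under the filter level.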

How the results depend on the processing

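The members' medians kept their sign under all alternatives run in the 3 comparisons, with GO minus control between -0.14 and -0.08. Members below 0 with GO numbered 37 of 57 after quantile normalization, 39 after median centring and 40 after loess. The share of all genes past the filter below 0, 48.9% without these steps, also fell after quantile normalization and centring. After loess that share rose slightly. The median of all genes past the filter was 0.03 after quantile normalization or centring and 0.00 after loess, against 0.01 without these steps. The count of members 1.5-fold from control with GO was 7, and 3 after quantile normalization or median centring, 19 at a log2 threshold of 0.32 and 1 at 2-fold. Of all genes past the filter, 6.14% were at least 1.5-fold from control with GO before these steps, and 22.9% at 0.32. In GO minus rGO the 3 became 1 after quantile normalization or centring, 18 at 0.32 and 1 at 2-fold; in rGO minus control 0 became 2 at 0.32. With no level filter, 51 of 87 members were below 0 with rGO, a share of 58.6% against 54.9% of all genes. Family medians over few genes moved with the filter. With no filter DNAJA stood at -0.030 (GO minus control) and 0.0033 (GO minus rGO), DNAJB at 0.11 and DNAJC at 0.0093 (GO minus rGO), HSP90 at -0.13 (GO) and 0.073 (rGO), the small heat shock proteins at -0.055 (GO), -0.085 (rGO) and 0.030 (GO minus rGO), and the HSF1 targets at 0.057 (GO). With the 60th percentile filter DNAJC stood at -0.25, HSP90 at -0.13, the HSF1 targets at -0.10 and the TRiC partners at 0.14 with GO; HSP90 stood at 0.073 with rGO and -0.37 in GO minus rGO. With the filter on the higher array HSP90 stood at -0.33 (GO), 0.053 (rGO) and -0.43 (GO minus rGO), and the small heat shock proteins at 0.19 (GO) and -0.15 (rGO). Over protein-coding members alone HSP90 stood at -0.23 (GO) and 0.032 (rGO). These moves follow from the genes that enter each median. No paired analysis was possible because each group had 1 array. Low signal limits the 30 members under the filter.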
